A study of Mus musculus with 2 samples.

Results

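The 80 genes described here are the nuclear genes of the mitochondrial respiratory chain, chosen by symbol alone out of 19465 genes in a pair of melanoma sections. They are all symbols that begin with Nduf followed by a, b, c, s or v, with Uqcr, with Cox and a digit from 4 to 8, or with Atp5, plus Sdha, Sdhb, Sdhc and Sdhd. The rule itself uses no measured value, but it was set with earlier results of these data known. All 80 had at least 50 unique molecular identifiers (UMIs, each standing for 1 captured probe molecule) over both sections, and 76 had at least 500. By role they are 7 core and 27 accessory subunits of complex I, 6 complex I assembly factors, the 4 subunits of complex II, and 7, 8 and 13 subunits of complexes III, IV and V. The remaining 8 are isoforms that most tissues do not use (Cox4i2, Cox6a2, Cox6b2, Cox7a1, Cox7b2, Cox8b, Cox8c and Ndufa4l2), called restricted isoforms below. The 66 subunits without the assembly factors and restricted isoforms are called ubiquitous subunits. Complexes were assigned by symbol, so complex IV here counts Cox7a2l, known as a factor that joins complexes III and IV rather than a standard subunit.

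B16.F10 cells, a pigment-forming melanoma line of the mouse, formed the tumours in untreated hosts of 8 to 16 weeks, which were taken on day 15 at similar sizes. The WT section came from a host whose genotype is labelled wild-type and whose title and protocol give Csnk2b fl/fl, in which the gene of the regulatory subunit of protein kinase CK2 is floxed but kept. The KO section came from a Foxp3-Cre × CK2b-fl/fl host, in which a Foxp3-driven Cre removes that gene from regulatory T cells, so that by those titles floxed Csnk2b is shared by both hosts, and the tumour cells themselves carry no engineered allele. Sections of 10 µm from fixed, paraffin-embedded tissue were read with Visium CytAssist, which counts ligated gene probes over a grid of spots that may each cover several cells. The WT section held 3066 spots with a median of 26818.5 UMIs and the KO section 2746 spots with a median of 36769. Each genotype is 1 section of 1 tumour, so the ratios below have no replicate check. Their 95% intervals cover counting error only, and the range over the 4 quadrants of a section shows spread inside that section and not between animals. In spots that mix cells, fewer cells of a type and less RNA per cell cannot be told apart.

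The respiratory chain sits in the inner mitochondrial membrane. Complex I takes electrons from NADH and complex II from succinate, complex III passes them to cytochrome c, complex IV passes them on to oxygen, and complex V, the ATP synthase, uses the proton gradient that this transport builds. The complexes other than complex II are assembled from nuclear and mitochondrial gene products, and in low oxygen cells are known to lean on glycolysis and to exchange some complex IV subunits. The 13 subunit genes of the mitochondrial genome, and Cox4i1, Cox5a, Cox6b1 and Ndufa4, were not analysed here.

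Promoters of nuclear respiratory chain genes are known for sites of NRF1, the GA-binding protein, YY1 and oestrogen-related receptors. RefSeq windows on GRCm38.p6, of 300 bases from 250 before the start of a gene to 50 after it, were at hand for 63 of the 80 genes (68 windows). The NRF1 motif (GCGC, any base, then TGCGC) was found on either strand in 25% of them, against 4.6% of all 32851 windows. The GA-binding protein motif CCGGAAG was in 23.5% against 8.86%, the YY1 motif AAGATGGC in 10.3% against 2.75%, and the oestrogen-related receptor core site AAGGTCA in 11.8% against 4.72%. The short hypoxia response core, ACGTG or GCGTG, was in 64.7% against 43.8%, and the E-box CAGCTG, the form bound by muscle regulators, in 8.82% against 16.3%. These motifs may overlap each other, and a match is a run of letters, not a shown binding site. The windows were not matched for base composition, and its part in these shares was not tested.

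The 250 bases before the start are printed for 5 members that the results below return to, 5′ to 3′ on the strand of the gene. Matches of 1 motif per gene are in capitals, and those of the other motifs stay in lower case. The hypoxia response core, for example, is also in Sdha and Cox8b. Cox6a1 (chr5:115348959-115349208, strand minus) and Sdha (chr13:74350241-74350490, strand minus) show the NRF1 motif of ubiquitous subunits. Ndufv3 (chr17:31519865-31520114, strand plus) and Cox7a1 (chr7:30183921-30184170, strand plus) show the hypoxia response core in 2 genes whose ratios were above 1 in hypoxic spots. The core was also in the windows of Atp5g3, Ndufs8 and Sdhb, which were lower in hypoxic spots, and not in that of Cox7a2l, which was higher. Cox8b (chr7:140900447-140900696, strand minus) shows the E-box in a muscle isoform. The E-box was also in the windows of 5 ubiquitous subunits, Atp5b, Ndufa8, Ndufb10, Ndufs5 and Ndufv2, and not in that of the muscle isoform Cox7a1.
Cox6a1: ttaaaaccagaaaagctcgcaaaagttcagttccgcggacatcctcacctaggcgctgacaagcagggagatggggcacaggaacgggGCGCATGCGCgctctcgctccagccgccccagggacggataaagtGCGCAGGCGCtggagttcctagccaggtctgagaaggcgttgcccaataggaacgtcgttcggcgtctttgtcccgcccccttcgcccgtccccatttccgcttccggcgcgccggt
Sdha: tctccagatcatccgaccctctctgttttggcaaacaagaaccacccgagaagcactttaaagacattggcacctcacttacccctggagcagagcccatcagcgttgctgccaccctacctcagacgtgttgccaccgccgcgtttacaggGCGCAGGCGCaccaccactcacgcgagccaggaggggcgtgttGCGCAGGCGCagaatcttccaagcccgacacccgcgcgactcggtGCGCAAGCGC
Ndufv3: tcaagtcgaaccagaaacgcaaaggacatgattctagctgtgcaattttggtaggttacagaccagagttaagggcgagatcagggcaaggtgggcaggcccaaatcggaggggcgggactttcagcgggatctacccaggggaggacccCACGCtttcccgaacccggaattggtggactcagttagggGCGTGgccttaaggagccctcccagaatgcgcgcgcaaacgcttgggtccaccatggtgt
Cox7a1: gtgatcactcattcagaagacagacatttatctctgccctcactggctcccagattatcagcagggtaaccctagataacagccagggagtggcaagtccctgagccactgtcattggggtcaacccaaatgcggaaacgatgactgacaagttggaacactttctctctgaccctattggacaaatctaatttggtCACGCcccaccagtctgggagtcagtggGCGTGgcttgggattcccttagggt
Cox8b: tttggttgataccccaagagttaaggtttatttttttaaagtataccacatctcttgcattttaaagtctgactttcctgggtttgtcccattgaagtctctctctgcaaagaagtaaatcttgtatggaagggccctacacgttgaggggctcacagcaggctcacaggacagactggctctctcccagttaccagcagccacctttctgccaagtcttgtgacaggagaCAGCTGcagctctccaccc
The capitals mark 2 matches in Cox6a1, 3 in Sdha, 2 each in Ndufv3 and Cox7a1, and 1 in Cox8b.

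The first comparison asks whether respiratory chain genes differ between tumours of WT and KO hosts. Relative to total UMIs, the 66 ubiquitous subunits together made up 23919 counts per 1000000 UMIs (CPM) of the WT section and 26971 CPM of the KO section, a ratio of 1.128 (1.126 to 1.130). Their median log2 ratio was 0.14, where the median of the 11026 genes with at least 500 UMIs was 0.01, and the interquartile range of ubiquitous subunits lay between −0.12 and 0.34 against −0.26 and 0.26 for all of those genes. Of all 80 members, 53 had a ratio above 1, against 51.2% of the 11026 genes. 25 members were at least 25% higher in the KO section and 5 at least 20% lower (the same fold either way), where the background shares were 19.6% and 20.9%.

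The scale on which the sections are set beside each other decides the sign of this median. With TMM factors computed over all genes (0.927 for WT and 1.08 for KO), 10 members were higher and 20 lower, beside 6.86% and 38.3% of all genes, and the ubiquitous median was −0.08 while that of all genes was −0.21. With TMM factors over genes of at least 500 UMIs, a setting added after the data were seen, the factors were 0.996 and 1.004, with 23 members higher and 6 lower, beside 18.7% and 21.6% of all genes. Each of the 5 scalings tried multiplies all genes of a section by one factor, so by construction the ubiquitous median lay the same 0.13 log2 units above that of all genes in every one. Under this common shift 27 of the 66 had a ratio above 1 under all 5, 24 a ratio below 1 under all 5, and 15 changed side.

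**Figure D1:**
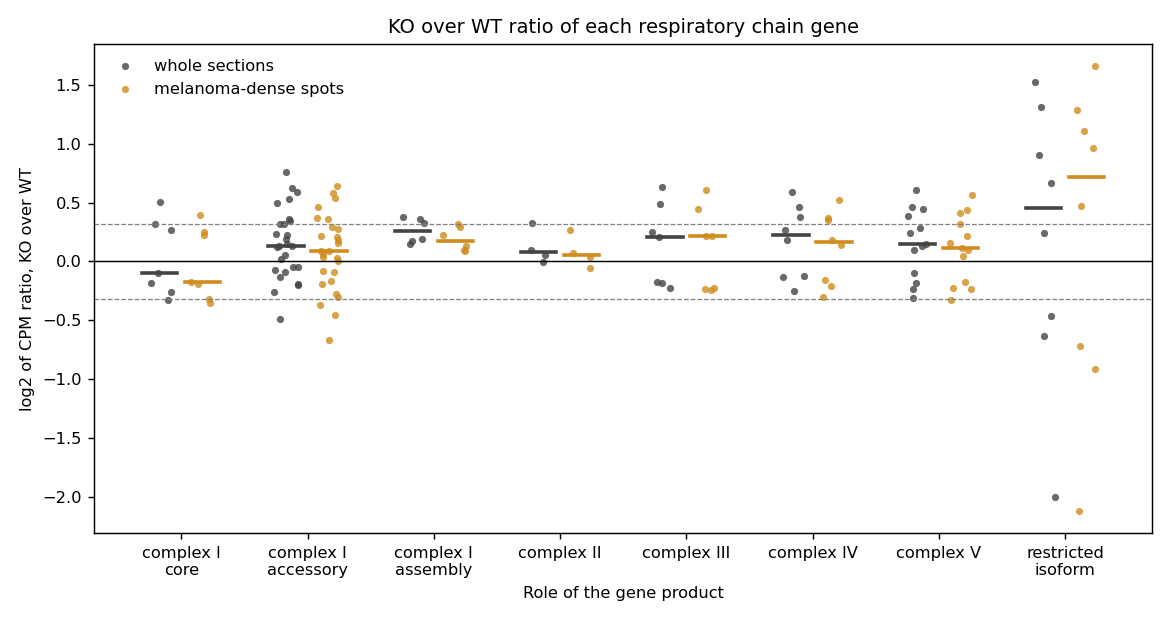
KO over WT ratio of CPM on a log2 scale for each of the 80 genes, grouped by the role of the gene product, over whole sections (grey) and melanoma-dense spots (orange). Short bars are group medians and dashed lines mark 25% higher and 20% lower, and most groups hold genes on both sides of 0, with the widest spread among restricted isoforms.

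Complex I subunits differed from each other in direction. Ndufa9, an accessory subunit beside the quinone site (chr6:126821863-126849144, GRCm38.p6), stood at 104 CPM in WT and 176 CPM in the KO section. This ratio of 1.689 (1.647 to 1.733) was the highest among the ubiquitous subunits, and its WT quadrants (72.6 to 115 CPM) lay below its KO quadrants (149 to 184 CPM). Ndufs5, an accessory subunit on the intermembrane side, had the lowest ratio, 0.713 (0.686 to 0.741), but its quadrants overlapped, at 48.8 to 77.7 CPM in WT and 41.5 to 61.4 CPM in the KO section. Of the core subunits, Ndufs1, which carries iron-sulfur clusters, had a ratio of 1.42 (1.39 to 1.45). Ndufv1, which binds NADH, had the opposite direction at 0.797 (0.78 to 0.814), with 193 to 225 CPM over the WT quadrants and 160 to 175 CPM over the KO quadrants. Ndufv3, an accessory subunit of the NADH-binding module and the one with most UMIs among accessory subunits, was at 409 and 616 CPM, a ratio of 1.505 (1.49 to 1.52).

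The core subunits had a median log2 ratio of −0.10 and the accessory subunits one of 0.13, while all 6 assembly factors had a ratio above 1 with a median of 0.26. Under TMM over all genes, which lowers every ratio alike, 3 of those 6 lay below 1. Ndufaf6 and Ndufaf7 marked the ends of this group at 1.30 (1.24 to 1.37) and 1.11 (1.06 to 1.16), and Ndufaf8, with most UMIs, was at 1.13 (1.09 to 1.16).

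In complex II, Sdhb, the iron-sulfur subunit (chr4:140961271-140979198), was at 1021 CPM in WT and 1283 CPM in the KO section, a ratio of 1.257 (1.246 to 1.268). The flavoprotein gene Sdha had a ratio of 1.07 (1.05 to 1.09), and the membrane anchors Sdhc and Sdhd had ratios of 0.999 (0.983 to 1.02) and 1.04 (1.02 to 1.06). Sdha and Sdhd lay below 1 under TMM over all genes. The quadrants of Sdhb overlapped, at 654 to 1151 CPM in WT and 971 to 1419 CPM in the KO section.

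Complex III held both a high and a low member. Uqcrh, the acidic hinge subunit (chr4:116066965-116075070), was at 333 and 514 CPM, a ratio of 1.55 (1.52 to 1.57), with 269 to 378 CPM over WT quadrants and 397 to 573 CPM over KO quadrants. Uqcrc1, a core subunit, had a ratio of 0.857 (0.844 to 0.871), and Uqcr10, the member with most UMIs, 0.879 (0.869 to 0.888).

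Complex IV had a median log2 ratio of 0.22. Cox6c was at 355 and 536 CPM, a ratio of 1.51 (1.49 to 1.53), and its quadrants did not overlap, at 266 to 394 CPM in WT and 461 to 578 CPM in the KO section. Cox5b, with most UMIs, had a ratio of 1.30 (1.29 to 1.31), and Cox6a1, the ubiquitous partner of a muscle isoform, one of 0.838 (0.827 to 0.849). In complex V, Atp5g3, one of the genes of the membrane ring subunit c (chr2:73908447-73912464), was at 885 and 1349 CPM, a ratio of 1.52 (1.51 to 1.54). The F1 head subunits alpha and beta, Atp5a1 and Atp5b, had ratios of 0.805 (0.796 to 0.813) and 0.934 (0.927 to 0.94). Over quadrants Atp5g3 ranged from 649.6 to 961 CPM in WT and from 1089 to 1464 CPM in the KO section. Atp5a1 ranged from 817 to 935 CPM and from 675 to 771 CPM, so neither gene overlapped and their directions were opposite.

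Among restricted isoforms, Ndufa4l2, a paralogue of the complex IV subunit Ndufa4 known to be induced by low oxygen (chr10:127509274-127517154), was at 92.1 CPM in WT and 22.9 CPM in the KO section, a ratio of 0.249 (0.238 to 0.261). Its WT quadrants ran from 17.5 to 264 CPM and its KO quadrants from 9.43 to 74.8 CPM, so they overlapped. Fibroblast and matrix genes, which the class comparison below ties to the same spots, had a summed ratio of 0.133 with all 18 of 18 lower, and their part in the Ndufa4l2 ratio was not tested. The muscle isoform Cox8b had a ratio of 2.88 (2.26 to 3.71) and Cox7a1 one of 1.59 (1.44 to 1.76), beside a summed ratio of 5.49 for skeletal muscle genes, of which all 20 were higher. In melanoma-dense spots, the class with few muscle UMIs described below, summed muscle genes were at 33.0 and 35.8 CPM. There Cox7a1 was at 6.09 and 11.9 CPM, a ratio of 1.95 (1.71 to 2.23), with quadrants at 5.29 to 8.20 CPM in WT and 8.83 to 13.5 CPM in the KO section. Cox8b was at 0.899 and 1.95 CPM in those spots, a ratio of 2.16 (1.54 to 3.09), and its quadrants overlapped. Over whole sections Cox6a2, the muscle partner of Cox6a1, had a ratio of 0.644 (0.58 to 0.715). Cox8c gave 22 and 59 UMIs, close to the medians of 16 and 42 UMIs for genes of other tissues used to read the probe background. Cox7b2 was also near it in the KO section, with 63 UMIs where 2 times the median is 84.

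Genes outside the rule that serve the same organelle were set beside these. Of 15 regulators of mitochondrial biogenesis 14 had a ratio above 1, with Ppargc1a, the coactivator of oxidative metabolism, at 1.62 (1.57 to 1.66) and Esrra, a nuclear receptor that works with it, at 0.866 (0.824 to 0.91). Of 17 citric acid cycle genes 12 were above 1 with a median log2 ratio of 0.20. Assembly factors outside the rule had 18 of 34 above 1 with a median of 0.06, and outer membrane and import genes 6 of 16 with a median of −0.07. Of the 11026 genes 51.2% were above 1, so the count of assembly factors is near the background. These ratios are on the scale of total UMIs. TMM over all genes lowers every ratio alike, and the counts under it were not taken. Hypoxia genes had a summed ratio of 1.76 and glycolysis genes 1.46.

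Sorting spots by cell content takes most muscle and stroma out of the comparison. Melanoma-dense spots are those with at least the median share of melanocytic UMIs (4.67% of a spot) that are neither stroma-rich (among the top 15% of spots by fibroblast and matrix genes) nor muscle-rich (at least 1% of UMIs from skeletal muscle genes). There were 1303 in WT and 1603 in the KO section, with summed melanocytic genes at 53717 and 55387 CPM. Within them the ubiquitous subunits were at 25896 and 28252 CPM, a ratio of 1.091 (1.089 to 1.093), and their median log2 ratio was 0.09 against 0.00 for all genes, with 53 of 80 members above 1 where 50% of all genes were. By the same limits 20 of 80 members were higher and 8 lower, beside background shares of 18.2% and 19.2%. Under TMM over all genes these counts were 8 and 24, beside 6.22% and 39.4% of all genes, with a ubiquitous median of −0.13 where all genes had −0.22.

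The summed level of ubiquitous subunits was 25134 to 26148 CPM over the WT quadrants of melanoma-dense spots and 27715 to 28873 CPM over the KO quadrants, with no overlap on the scale of total UMIs. For single genes, all KO quadrants lay above all WT quadrants for 36 of 80 members, beside 20.5% of all genes, and below them for 16 of 80, beside 17.1%. Complex I subunits gave 16 above and 7 below of 34, complex V gave 6 and 4 of 13, complex III gave 4 and 3 of 7, and complex IV gave 4 and 0 of 8. Ndufa9 kept its place, at 96.3 to 120.0 CPM against 160 to 187 CPM, and so did Uqcrh, at 325 to 394 CPM against 511 to 580 CPM.

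Cox6a2 differed most between the sections in melanoma-dense spots among members with at least 500 UMIs. It was at 9.30 CPM (476 UMIs) in WT and 2.13 CPM (148 UMIs) in the KO section, a ratio of 0.229 (0.189 to 0.276), with WT quadrants at 5.39 to 13.6 CPM and KO quadrants at 0.758 to 2.41 CPM. Ndufa4l2 had a ratio of 0.606 (0.548 to 0.671).

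**Figure D2:**
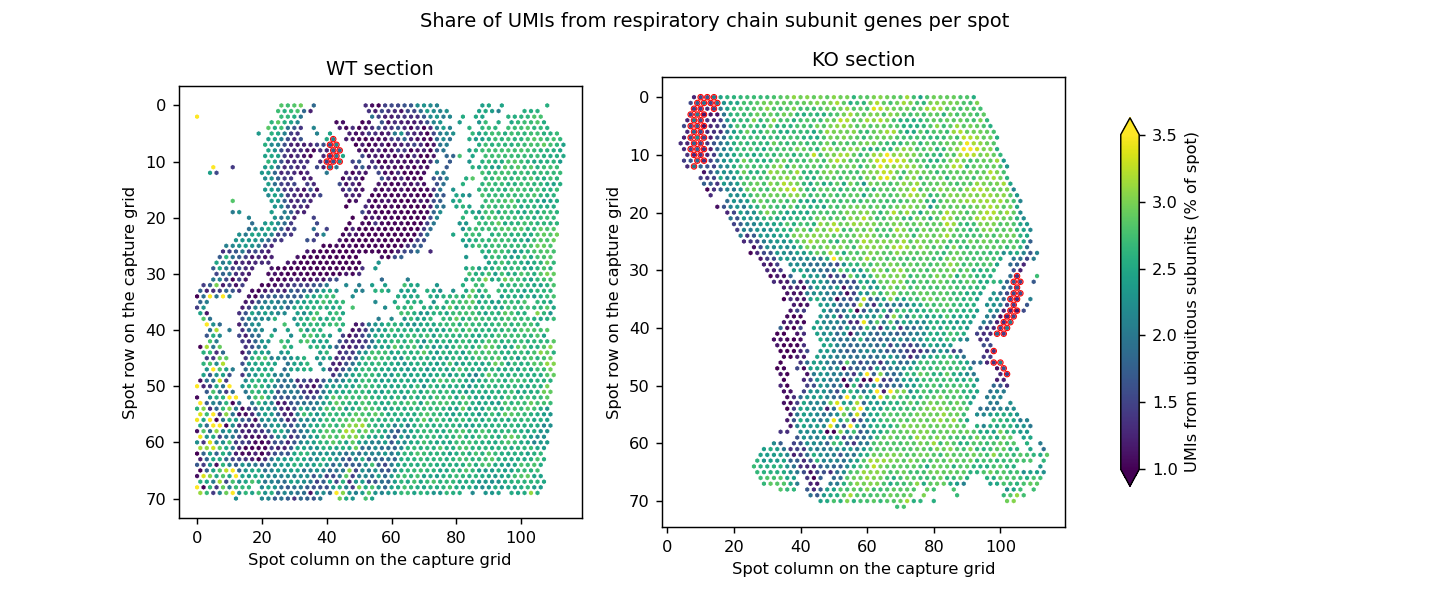
Share of each spot's UMIs that came from the 66 ubiquitous subunits, in percent, by the row and column of the spot on the capture grid of each section, with muscle-rich spots ringed in red. Low shares form a band from the upper middle to the left of the WT section and lie along the left edge of the KO section, and the muscle-rich spots lie at the margins of the KO section.

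The next question is where in the tissue the chain is expressed. In both sections stroma-rich spots had a much smaller share of chain UMIs than melanoma-dense spots. In the WT section, 775 stroma-rich spots held 13116 CPM of ubiquitous subunits against 25896 CPM in melanoma-dense spots, a ratio of 0.506 (0.504 to 0.509). In the KO section, 94 stroma-rich spots held 12734 against 28252 CPM, a ratio of 0.451 (0.441 to 0.461). The median log2 ratio of ubiquitous subunits was −0.90 in WT and −0.98 in the KO section, where all genes had medians of −0.39 and −0.41.

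By those limits 71 of 80 members were lower and 5 higher in WT stroma-rich spots, beside 53.4% and 25.9% of all genes. The KO section gave 71 lower and 3 higher, beside 55.2% and 26.3%. All 66 of the ubiquitous subunits were below 1 in WT and 62 of 66 in the KO section, where 34.3% and 34.5% of all genes had a ratio above 1. In both sections at once 62 were below 1 and none was above 1. Sdhb was among the lowest in each, at 344 against 1149 CPM in the WT (ratio 0.299, 0.29 to 0.31) and 331 CPM against 1379.96 CPM in the KO section (0.24, 0.209 to 0.274). Ndufa5, Cox7a2 and Ndufa12 followed in the WT section at 0.306, 0.315 and 0.325. Ndufaf6, Cox5b and Cox7a2 stood beside Sdhb in the KO section at 0.162, 0.245 and 0.253. The 6 complex I assembly factors together had 111 UMIs in KO stroma-rich spots, so the Ndufaf6 value rests on few UMIs. Cox7c, at 0.995 in the WT, and Ndufa7, at 1.09 in the KO section, had the highest ratios among ubiquitous subunits. Over whole sections Cox7c was at only 12.2 CPM in WT and 13.8 CPM in KO, the lowest of the complex IV genes. How well its probe reads the transcript was not tested.

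The complexes kept close together in this contrast. In the WT section the summed ratios ran from 0.458 for complex II to 0.539 for complex III, with complex I at 0.526, complex IV at 0.494 and complex V at 0.496. In the KO section they ran from 0.394 for complex II to 0.495 for complex III. Citric acid cycle genes were lower with them (16 of 17 by at least 20% in each section), as were outer membrane and import genes (14 and 13 of 16). Of all genes 53.4% in WT and 55.2% in the KO section were lower by that limit. Ppargc1a was at 0.132 (0.112 to 0.153) and 0.0314 (0.00856 to 0.0805) times its melanoma-dense level, and Esrra at 1.19 and 2.01 times.

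Among restricted isoforms, Ndufa4l2, Cox4i2 and Cox7a1 had ratios above 1 in both sections, and Ndufa4l2 had the highest. It was at 16.5 CPM in melanoma-dense and 535 CPM in stroma-rich spots of the WT section, 32.4-fold higher (30.1 to 34.8). In the KO section it was at 10.0 and 377 CPM, 37.5-fold higher (32.4 to 43.5). Of its 8173 UMIs in the WT section 5854 came from stroma-rich spots, and of its 2167 UMIs in the KO section 248 did. Cox4i2, the isoform of the regulatory subunit 4 found in lung and vessel walls, was 1.79-fold higher in the WT (1.32 to 2.41), and its 4 UMIs in KO stroma-rich spots leave its ratio of 1.34 between 0.364 and 3.47. Cox7a1 was 1.94-fold higher in WT (1.56 to 2.38) and at 1.15 (0.524 to 2.20) in the KO section, with 9 UMIs in its stroma-rich spots. Cox6b2 was 3.71-fold higher in WT (2.05 to 6.65), on 23 UMIs in stroma-rich spots, and had 0 UMIs in those of the KO section. Pericyte and smooth muscle genes, summed, were 7.05-fold higher in WT stroma-rich spots and at 0.809 of the melanoma-dense level in the KO section, and macrophage genes were 13.6-fold and 61.2-fold higher. The part of these cell types in these values was not tested.

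Depth and place moved with the classes. The median stroma-rich spot had 12739 UMIs in WT and 6797 in the KO section, against 36078 and 42948 in melanoma-dense spots, and 82 of the 94 KO stroma-rich spots lay within 2 steps of the edge. Within spots of at least 5000 UMIs the counts of higher and lower members stayed within 1.5 times those above.

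Muscle-rich spots allow the tissue isoforms to be read beside their partners. The KO section had 57 such spots and the WT section 11, too few to compare. In KO muscle-rich spots the ubiquitous subunits were at 15586 CPM against 28252 CPM in melanoma-dense spots, a ratio of 0.552 (0.54 to 0.564), with a median log2 ratio of −0.68 where all genes had −0.28. By the 20% and 25% limits 58 of 80 members were lower and 6 higher, beside 50.9% and 28.5% of all genes.

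The isoforms of striated muscle stood far above this. Cox6a2 was at 2.13 CPM in melanoma-dense and 536 CPM in muscle-rich spots, 251-fold higher (206 to 309), while its partner Cox6a1 was at 423 and 354 CPM, a ratio of 0.836 (0.721 to 0.964). Cox8b, with 135 and 91 UMIs, was 87.1-fold higher (66 to 114), and Cox8a was at 0.665 (0.562 to 0.78). Cox7a1 was 7.37-fold higher (5.37 to 9.89), and Cox7a2 was at 0.35 (0.303 to 0.403). Ndufa4l2 was 5.38-fold higher (3.58 to 7.8). These isoform genes of complex IV stood higher in the muscle-rich spots, where their partners stood lower. The spots were mixed, with skeletal muscle genes at 38062 CPM, fibroblast genes at 15624 CPM, melanocytic genes at 8507 CPM and macrophage genes at 8282 CPM. The ratios therefore describe mixed spots and not muscle fibres alone.

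**Figure D3:**
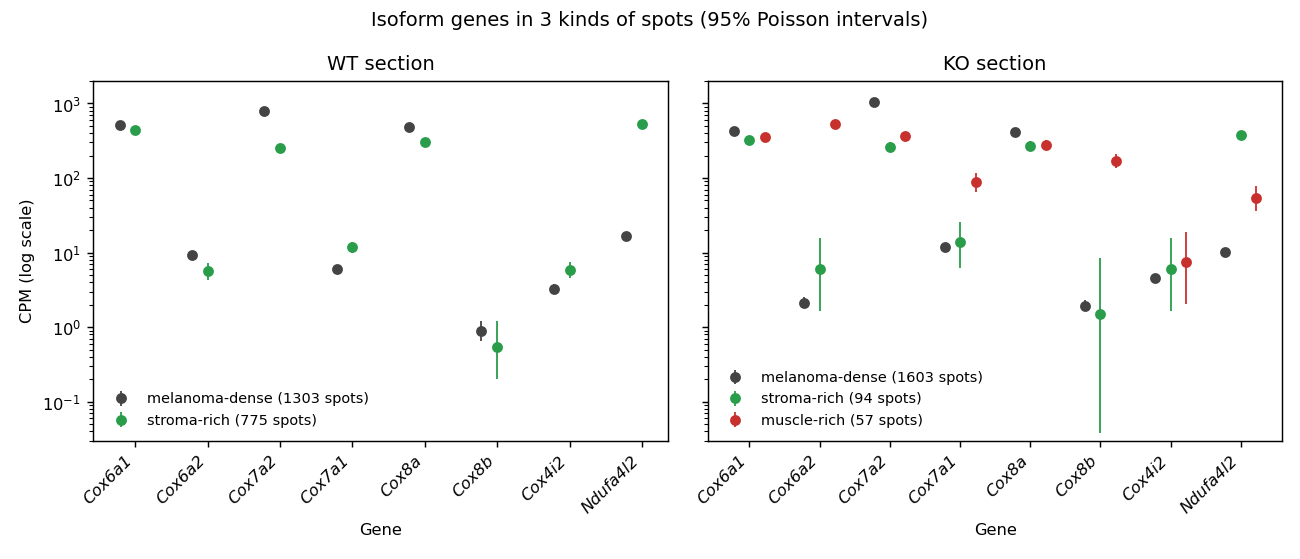
CPM on a log scale of 4 restricted isoforms of complex IV with 3 ubiquitous partners, and of Ndufa4l2, in melanoma-dense, stroma-rich and muscle-rich spots of each section, with 95% Poisson intervals for counting error. Cox6a2 and Cox8b reached 536 and 169 CPM in KO muscle-rich spots, and Ndufa4l2 was highest in stroma-rich spots of both sections (535 and 377 CPM), while muscle-rich spots of the WT section were too few to draw.

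Among ubiquitous subunits Ndufv1 was the only one above its melanoma-dense level, where 37.2% of all genes were, at 203 against 164 CPM (ratio 1.24, 1.01 to 1.49). The lowest members with at least 500 UMIs were Ndufaf5, Cox5b, Ndufs1 and Sdhb, at 0.274, 0.287, 0.337 and 0.344. The 6 complex I assembly factors together had 110 UMIs in the KO muscle-rich spots, so the Ndufaf5 value rests on few UMIs. These spots also held erythroid genes at 34.4-fold, macrophage genes at 32.8-fold and fibroblast genes at 46.0-fold the melanoma-dense sum and the part of these cells in the ratios was not tested.

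From edge to interior the ubiquitous subunits differed less. Rim spots, those within 2 grid steps of the frame or of an empty position, held 22955 CPM against 24499.6 CPM in interior spots of the WT section, a ratio of 0.937 (0.934 to 0.94). The KO section had 24568 against 27687 CPM, a ratio of 0.887 (0.885 to 0.89). The median log2 ratios were −0.08 and −0.15, where all genes had 0.00 and 0.01. Of the 66 ubiquitous subunits, 56 were below 1 in WT and 54 in the KO section, and 50 were below 1 in both. Of all genes 48.9% had a rim ratio above 1 in WT and 52.3% in KO tissue. By the 25% and 20% limits the WT section had 3 members higher and 1 lower, beside 8.91% and 1.12% of all genes, and the KO section 4 higher and 6 lower, beside 16.8% and 4.34%.

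The members with the highest rim ratios among those with at least 500 UMIs were restricted isoforms. Cox6a2 was 3.90-fold higher at the KO rim (3.31 to 4.6) and 1.26-fold higher at the WT rim (1.1 to 1.45), and Ndufa4l2 was 2.32-fold (2.13 to 2.53) and 1.15-fold higher (1.1 to 1.2). In the same rims skeletal muscle genes were 8.23-fold and 4.65-fold higher and fibroblast genes 4.20-fold and 1.51-fold higher in sum. Within melanoma-dense spots Cox6a2 was 1.24-fold higher at the KO rim and at 0.940 of its interior level in the WT section. The lowest at the KO rim were Cox5b, Ndufv3, Atp5e and Uqcrb, at 0.772, 0.775, 0.784 and 0.790, and the lowest at the WT rim were Ndufaf8, Ndufb10, Ndufaf6 and Ndufaf7, at 0.841, 0.865, 0.868 and 0.873.

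Within melanoma-dense spots the profile was steepest at the outermost step. In the WT section the ubiquitous sum was 25078 CPM at 1 step, 26099 CPM at 2 steps and between 26112 and 26199 CPM farther in. In the KO section it was 26209.7 CPM at 1 step and 27688, 28249, 28447 and 28576 CPM in the bins of 2, 3 to 4, 5 to 8 and over 8 steps. Complex IV in the KO section had the widest range, from 4322 CPM at 1 step to 4921 CPM beyond 8 steps, while in the WT section it was highest at 3 to 4 steps (4266 CPM) and lowest beyond 8 (3982 CPM). Depth was lowest at the edge as well, with medians of 28920.5 UMIs at 1 step in WT and 28396 in the KO section. In spots of 20000 to 50000 UMIs, a setting added after the data were seen, the ubiquitous median at the rim was −0.04 in WT and −0.10 in the KO section.

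**Figure D4:**
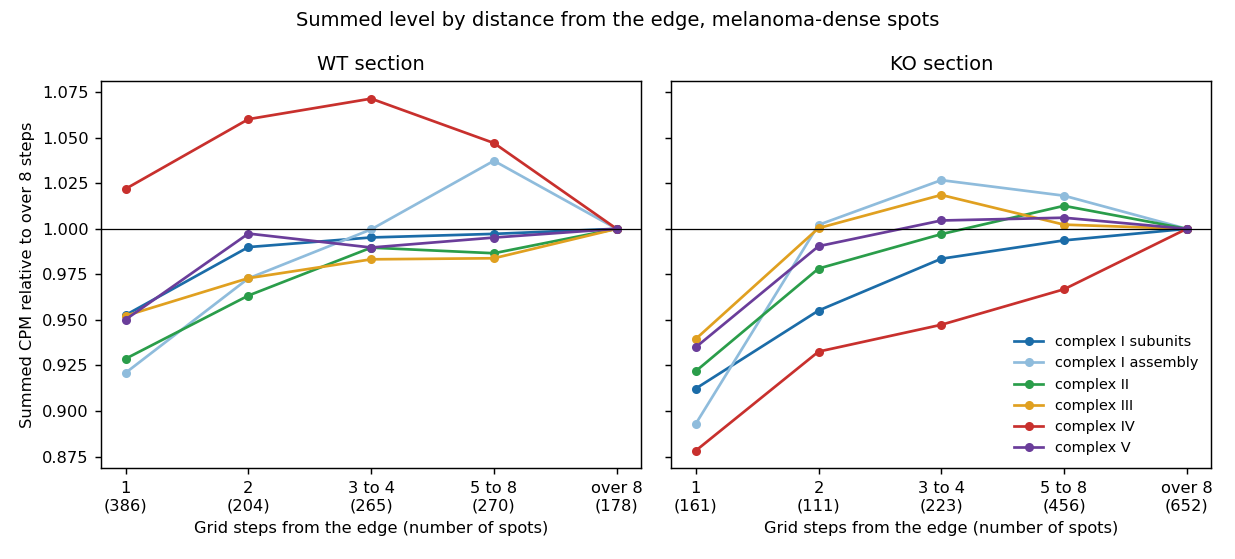
Summed CPM of each complex in melanoma-dense spots by grid steps from the edge, relative to spots over 8 steps away, with the number of spots under each bin. Each complex is lowest at 1 step in the KO section, and complex IV runs from 4322 to 4921 CPM there, whereas in the WT section it is highest at 3 to 4 steps.

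The last comparison asks how the chain relates to hypoxia. Melanoma-dense spots were split into 5 bins by their share of UMIs from 21 hypoxia genes, none of them a member, with the same limits in both sections. The bottom and top bins held 446 and 91 spots in WT and 135 and 491 in the KO section, and the hypoxia genes summed to 795 and 5695 CPM in WT and 861 and 5376 CPM in the KO section. Glycolysis genes were 2.42-fold and 2.24-fold higher in the top bin.

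The summed ubiquitous level was lower in the most hypoxic bin of each section by a small amount, and in the KO section the ubiquitous median lay above that of all genes. In the WT section they were at 26369.5 CPM in the bottom and 23669 CPM in the top bin, a ratio of 0.898 (0.89 to 0.905), and in the KO section at 28356 and 27364 CPM, a ratio of 0.965 (0.96 to 0.97). Their median log2 ratio was −0.15 in the WT section, where all genes had −0.04, and −0.03 in the KO section, where all genes had −0.07. By the 25% and 20% limits the WT section had 6 members higher and 19 lower, beside 17.6% and 21.1% of all genes, and the KO section 6 higher and 9 lower, beside 12.5% and 22.3%. Of the ubiquitous subunits 52 of 66 were below 1 in WT and 39 of 66 in KO tissue, where 44% and 41.5% of all genes were above 1, so the KO count is close to the background.

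The complexes ranked alike in both sections. Complex I assembly factors were lowest, at 0.737 (0.677 to 0.801) in WT and 0.853 (0.816 to 0.892) in the KO section, with all 6 below 1 in both. Complex II followed at 0.787 (0.761 to 0.813) and 0.873 (0.857 to 0.889), then complex V at 0.878 and 0.919, complex III at 0.896 and 0.952 and complex I subunits at 0.914 and 0.988. The place of complex I differed by role. Its core subunits alone were at 0.849 in WT and 0.881 in the KO section, below complex V. Its accessory subunits, which include Ndufv3 described below, were at 0.928 and 1.01. Complex IV was highest, at 0.966 (0.946 to 0.987) and 1.074 (1.060 to 1.088). Of its 8 members 7 were above 1 in the KO section, Cox7a2l among them. The difference between sections in these ratios was not tested.

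**Figure D5:**
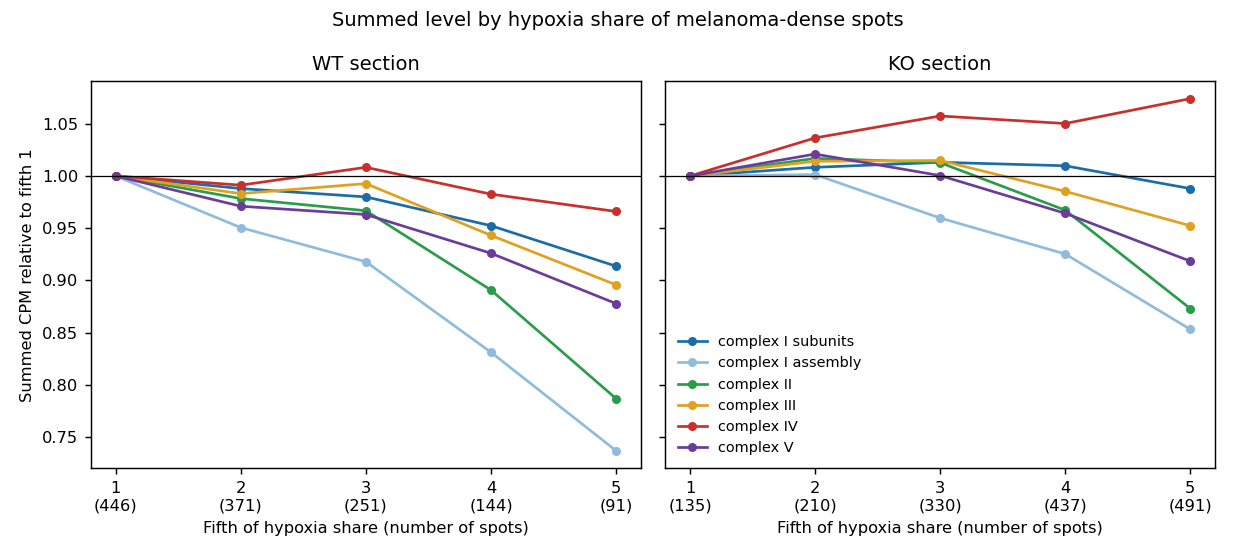
Summed CPM of each complex by bin of hypoxia share in melanoma-dense spots, relative to the bin with the lowest share, with the number of spots under each bin. Complex I assembly factors end lowest (0.737 in WT, 0.853 in KO) and complex IV highest (0.966 in WT, 1.074 in KO).

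Among members with at least 500 UMIs, Ndufs8, Uqcrc1, Atp5g3 and Cox4i2 were lower by at least 20% in both sections. Ndufs8, a core subunit of complex I with iron-sulfur clusters, was at 260.5 and 182 CPM in the WT (ratio 0.697, 0.63 to 0.77) and 248.5 and 189 CPM in the KO section (0.761, 0.718 to 0.807). Atp5g3 was at 0.706 (0.671 to 0.741) and 0.783 (0.766 to 0.801), and Uqcrc1 at 0.769 (0.711 to 0.83) and 0.757 (0.722 to 0.795). Sdhb was at 0.716 (0.684 to 0.749) and 0.828 (0.809 to 0.848). Other low members were Ndufb2 and Ndufaf2 in the WT section, at 0.658 and 0.699, and Atp5g1, another subunit c gene, at 0.736 in the KO section. Ndufb2 had 755 UMIs over all 3066 WT spots, and the top bin holds 91 of these spots, so its value rests on few UMIs.

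Cox4i2, which hypoxia is known to induce in some cells, was lower here. Its UMIs over the 5 bins were 95, 46, 12, 11 and 3 in WT and 51, 72, 68, 68 and 55 in the KO section, and the top over bottom ratios were 0.301 (0.0609 to 0.905) and 0.458 (0.307 to 0.684). Notch3, a marker of pericytes, was at 0.116 (0.0139 to 0.426) and 0.307 (0.211 to 0.445) in the same contrast. Of the 10 pericyte and smooth muscle genes 6 and 8 were lower by at least 20%, beside 21.1% and 22.3% of all genes. The part of these cells in the Cox4i2 values was not tested.

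Members that were higher with hypoxia were few. Ndufv3 was at 409 and 554 CPM in the WT, 1.35-fold higher (1.28 to 1.44), and at 459 and 816 CPM in the KO section, 1.78-fold higher (1.71 to 1.85), and was the only ubiquitous subunit at least 25% higher in both. Cox7a2l was 1.158-fold (1.071 to 1.251) and 1.318-fold higher (1.245 to 1.395). Cox7a1 was 1.53-fold (0.875 to 2.53) and 1.71-fold higher (1.28 to 2.31), so the WT interval includes 1, and Cox8b, with 5 and 39 UMIs in the top bins, was 2.97-fold (0.852 to 8.5) and 4.14-fold higher (1.49 to 16). Cox7b2, counted among the higher members of the KO section, had 0 UMIs in the bottom and 9 in the top bin, so it has no fold. Ndufa4l2 was 1.78-fold higher in the WT (1.33 to 2.35) and at 1.04 (0.789 to 1.39) in the KO section. Ndufa1, a small membrane subunit of complex I, was 1.18-fold higher in the KO section.

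Spots with more hypoxia UMIs were also shallower, with median UMIs of 48782 in the bottom and 24800.0 in the top bin of the WT section and 55097 and 34790.0 in the KO section. In spots of 20000 to 50000 UMIs the ubiquitous median was −0.11 in WT and −0.05 in the KO section, and Ndufv3 was 1.38-fold and 1.77-fold higher. Fibroblast genes, summed, were 3.29-fold higher in the top WT bin and at 0.325 of the bottom bin in the KO section, and their part in the difference between sections was not tested.

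Over single melanoma-dense spots the share of ubiquitous subunits had a Spearman correlation with the hypoxia share of −0.28 in the WT (1303 spots) and −0.30 in the KO section (1603 spots), as a description over spots of 1 library that share its depth and neighbourhood. For complex IV the values were −0.03 and 0.16, for complex V −0.29 and −0.46, and for complex II −0.26 and −0.40. The ubiquitous share also had correlations of 0.27 and 0.17 with the UMIs of the spot.

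Since the KO section held more hypoxic spots, the sections were set beside each other within bins. From the bottom to the top bin the median log2 KO over WT ratio of ubiquitous subunits was 0.09, 0.14, 0.12, 0.18 and 0.21, where all genes had between −0.01 and 0.04, on the scale of total UMIs. The summed ratio was 1.075 (1.070 to 1.081) in the bottom and 1.156 (1.146 to 1.166) in the top bin. In the top bin complex I assembly factors had the ratio 1.315 (1.209 to 1.432) and complex II 1.246 (1.205 to 1.288). Complex IV had the ratio 1.209 (1.183 to 1.235), complex I subunits 1.182 (1.164 to 1.201), and complexes III and V 1.094 (1.062 to 1.126) and 1.105 (1.088 to 1.122).

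Their layout was also more patterned than that of most genes. Moran's I, the authors' deposited score of how alike neighbouring spots are, had a median of 0.34 over the members in WT and 0.32 in the KO section, where the 11026 genes had 0.162 and 0.149. Ndufa4l2 was highest in the WT section (0.682) and Sdhb in the KO section (0.52). The members also have more UMIs than most genes, and the part of depth in this score was not tested.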

How the data were processed

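UMI counts per gene and spot were deposited by the authors as whole numbers without normalization, and the file headers name Space Ranger 2.1.0 as their source. The submitters' processing notes also name featureCounts and the mm10 build without giving a role. The deposited Moran's I is a score computed by the authors' software per the file headers, and it was used as given. Counts were summed over spots and scaled to CPM. Ratios carry exact conditional binomial (Clopper-Pearson) intervals. No p-value was computed with 1 section per genotype. Medians use log2 ratios with 0.5 added to each count. TMM factors came from edgeR 4.0.16 in R 4.3.3. The 2138 barcodes that both sections hold are positions of the same grid. Spot classes rest on marker lists that hold no member, and 820 WT and 572 KO spots lay within 10% of the melanocytic limit. Within each complex, full values go to the members with most UMIs and the highest and lowest ratio, and within sections to the 4 highest and lowest. The values of 1 member that this rule names are not reported here. Members and lists were chosen with earlier results of these data known. Alternatives were other scalings, depth filters, class limits, edge definitions and hypoxia splits. The ratio script was checked on simulated data. RefSeq positions were matched by symbol for 78 of 80 members.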

Additional observations from a re-analysis of the deposited data

Results flagged for a closer look

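Cox6a2 was at least 25% higher in one section and at least 20% lower in the other in 2 contrasts within sections. Its stroma-rich over melanoma-dense ratio was 0.600 in WT tissue (61 UMIs in stroma-rich spots) and 2.85 in the KO section (4 UMIs, with an interval of 0.766 to 7.45). Skeletal muscle genes summed to 1.21 and 4.87 times their melanoma-dense level in the same spots, and their part was not tested. Its top over bottom hypoxia bin ratio was 1.44 in WT and 0.779 in the KO section, with intervals of 0.907 to 2.21 and 0.463 to 1.34 that include 1. The difference between the sections was not tested in either contrast.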

How the results depend on the processing

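No paired analysis was possible because each genotype is 1 section. Of 201 alternatives of counts and medians, 20 moved and 4 changed sign, and of 5315 alternatives of single members, 960 moved and 22 others, all of members past the 25% and 20% limits, changed sign. Members inside those limits also changed side: between the sections, 18 of 80 did so over whole sections and 26 of 80 in melanoma-dense spots across the scalings, all by a shift common to all genes. The results that moved were few in kind. Scaling by TMM factors over all genes gave 10 members higher and 20 lower over whole sections with a ubiquitous median of −0.077, and 8 and 24 in melanoma-dense spots with −0.13. Median-of-ratios size factors gave 10, 23 and −0.090, and 7, 26 and −0.16. The median of all genes moved with them, to between −0.21 and −0.25, and TMM factors over genes of at least 500 UMIs, added after the data were seen, gave 23 and 6 over whole sections. With equal weight per spot, 3 members were lower over whole sections, 4 at the WT rim, and 26 at the KO rim with a median of −0.26. WT stroma taken as the top 5% of spots gave a median of −1.16, and the KO section then left too few stroma-rich spots for a value. At the WT rim, 1 member was higher among spots of at least 5000 UMIs and 1 among melanoma-dense spots, and 2 were lower with a rim of 1 step and 2 in spots of 20000 to 50000 UMIs. At the KO rim, 10 were lower where the frame was not an edge, and 2 were higher among melanoma-dense spots. A split into 10 hypoxia bins gave 14 lower in the KO section. Shares of all genes past the limits were taken only for the comparisons described above and for TMM factors. The other counts in this paragraph therefore have no background beside them and cannot be told apart from a shift common to all genes. The cause of these moves was not tested.

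The members past the limits that changed sign were mostly restricted isoforms with few UMIs. With equal weight per spot these were Cox7b2 (4.23) and Cox6a2 (1.43) over whole sections, Cox6b2 in melanoma-dense spots (0.626) and WT stroma (0.750), and Cox7b2 at the KO rim (0.185). Cox8c was at 0.959 in the narrower WT stroma. With muscle-rich at 5% of UMIs, Ndufs3 was at 1.09 and Ndufb7 at 1.01. Within melanoma-dense spots the WT rim gave 0.895 for Cox6b2, 0.940 for Cox6a2 and 0.942 for Cox8b, and the KO rim 0.594 for Cox8b. In spots of 20000 to 50000 UMIs the WT rim gave 0.952 for Cox6a2 and 0.751 for Cox8b, and the KO rim 0.707 for Cox8b. In the WT hypoxia contrast Cox6b2 was at 1.20 with glycolysis genes added, 2.15 with 10 bins and 1.42 in spots of 20000 to 50000 UMIs, and Ndufb4 at 1.08 in the top 25% of spots by melanocytic share. In the KO hypoxia contrast Cox8c was at 1.23 with 10 bins and 1.26 in spots of 20000 to 50000 UMIs, and Cox6a2 at 2.14 in the top 25% of spots by melanocytic share.

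Counting error limits the restricted isoforms most: Cox7b2, Cox6b2, Cox8b and Cox8c each had under 500 UMIs. The KO stroma-rich and muscle-rich classes rest on 94 and 57 shallow spots, and differences between hosts cannot be told apart from differences between 2 single sections.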
